A study of Mus musculus with 5 samples.

Results

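10 genes of the TNF superfamily and its receptors were followed across all the arrays of a study of CD4+ T cells in transfer colitis. They are 5 costimulatory or TNF receptors (Tnfrsf4, Tnfrsf9, Tnfrsf18, Tnfrsf1b and Cd27) and 5 ligands (Tnf, Cd70, Tnfsf8, Tnfsf11 and Tnfsf14). They were chosen by name with earlier results of these data known, so their shares and medians beside those of all genes are descriptions. A probe set was taken as theirs where its only gene symbol was one of these names. That gave 15 of the 45101 probe sets on the array, for 10 of 18193 genes. Where a gene had several probe sets, the one brightest on average across the 5 arrays was the main one, and the others are given too.

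CD45RBhigh CD4+ naive T cells from BALB/c mice had been transferred into Rag1-/- mice, which have no T or B cells of their own, and CD3+CD4+ cells were sorted from the colonic lamina propria (LP) at 6 weeks after transfer, by a legend of the study, or 8 weeks, by its general methods, into CXCR6+ (labelled CXCR6 Hi, n = 2 arrays) and CXCR6- (labelled CXCR6 Lo, n = 2 arrays) subsets by binding of a CXCL16-Fc fusion protein. The comparison population was CD3+CD4+CD45RBhigh naive T cells (n = 1 array), which the sample's source name and the methods place in the spleen and its description in the LP of healthy mice. All samples have a BALB/c background, and the mice were used at 8 to 12 weeks of age. The replicates are called biological, but how many mice stand behind an array is not given in the sources used here, so the p-values below reflect the spread between the arrays alone.

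TNF superfamily ligands are mostly membrane proteins that bind as trimers to cysteine-rich receptors on neighbouring cells. Receptors without a death domain, such as OX40 (Tnfrsf4), 4-1BB (Tnfrsf9), GITR (Tnfrsf18), TNFR2 (Tnfrsf1b) and CD27, recruit TRAF adaptors and lead to NF-kB activation, which supports the division and survival of T cells after antigen recognition. CD27 is carried by naive T cells and lost after prolonged stimulation, whereas OX40 and 4-1BB appear on activated T cells. TNF is a cytokine with a central place in intestinal inflammation, RANKL (Tnfsf11) is the ligand that drives osteoclast formation, and CD30 ligand (Tnfsf8), LIGHT (Tnfsf14) and CD70 act on T cells and on antigen presenting cells.

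The 4 LP arrays were alike, with Spearman correlations of 0.951 to 0.957 over genes, and stood apart from the naive array at 0.821 to 0.826. Cxcr6 had signals of 184 and 225 in CXCR6+ cells, 58.1 and 25.3 in CXCR6- cells and 10.5 in naive cells. Signals are linear values relative to the array median, which is 1. The naive array also differed from the LP arrays in ways that cannot be told apart from the group. Xist was at 181 to 215 in LP cells and 0.864 in naive cells, the Y-linked gene Eif2s3y at 1.59 to 3.41 and 53.5, and the Dap spike control at 64.6 to 102 and 0.194. Of 5 measured CD4 T cell markers, Cd3d and Cd3e were lower in LP cells and the other 3 did not pass, with a summed signal of 252 to 383 in LP cells and 411 in naive cells. Of 5 B cell markers 3 were lower in LP cells and 1 higher, with a summed signal of 2.08 to 3.48 in LP cells and 49.3 in naive cells, and the NK cell gene Ncr1 was at 0.100 to 0.685 and 24.9. The other measured NK cell marker, Klra8, did not pass, at 0.190, 0.022, 0.286 and 0.042 in LP cells and 0.140 in naive cells. Of 6 stromal markers 5 were higher in LP cells (summed signal of 93.3 to 152 in LP cells and 9.14 in naive cells), and of 6 epithelial markers 2 (23.2 to 53.6 and 10.5).

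The promoters of 3 members are shown as examples. These genes lay on both sides of the naive array (Tnfsf11 and Tnfrsf1b above it, Tnfsf14 below it), and the 250 bases before their annotated start overlap no other gene. Tnf and Tnfrsf9, both above the naive array, also have 250 bases that overlap no other gene and are not shown. The sequences are from RefSeq (GRCm38.p6) and run 5′ to 3′ towards the gene's start, in lower case. Capitals mark matches on either strand to the loose NF-kB pattern GGGNNNNNCC or to the AP-1 pattern TGANTCA.
Tnfsf11 (chr14:78308044-78308293, minus strand): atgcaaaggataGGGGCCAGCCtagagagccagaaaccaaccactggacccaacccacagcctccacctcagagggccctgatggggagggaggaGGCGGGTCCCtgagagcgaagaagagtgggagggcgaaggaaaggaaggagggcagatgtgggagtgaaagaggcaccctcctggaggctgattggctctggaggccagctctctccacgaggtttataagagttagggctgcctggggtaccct
Tnfrsf1b (chr4:145246871-145247120, minus strand): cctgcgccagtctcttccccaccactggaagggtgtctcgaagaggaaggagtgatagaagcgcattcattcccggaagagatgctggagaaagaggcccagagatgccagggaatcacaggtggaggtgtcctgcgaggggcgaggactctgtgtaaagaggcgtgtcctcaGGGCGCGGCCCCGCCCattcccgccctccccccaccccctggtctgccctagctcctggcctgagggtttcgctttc
Tnfsf14 (chr17:57194182-57194431, minus strand): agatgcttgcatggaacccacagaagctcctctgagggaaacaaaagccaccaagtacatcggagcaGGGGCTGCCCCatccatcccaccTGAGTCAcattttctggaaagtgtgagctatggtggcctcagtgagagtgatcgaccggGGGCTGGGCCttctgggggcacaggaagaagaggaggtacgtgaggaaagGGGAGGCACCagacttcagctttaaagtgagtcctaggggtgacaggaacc
Within these stretches GGGNNNNNCC was found 2 times for Tnfsf11, 3 times for Tnfrsf1b, where the matches overlap each other, and 4 times for Tnfsf14, which also held the AP-1 pattern 1 time. The stretches not shown had fewer matches to GGGNNNNNCC, 1 for Tnf and 0 for Tnfrsf9. In the whole 300-base windows around the starts, GGGNNNNNCC was present for 6 of the 9 members that have a window (Cd27, Tnf, Tnfrsf1b, Tnfrsf9, Tnfsf11 and Tnfsf14) and in 50.8% of all 32851 windows. TGANTCA was present for 2 of the 9 members (Tnfrsf9 and Tnfsf14) and in 7.81% of all windows. A member was counted if any of its windows held the pattern, whereas the shares over all are by window. Tnfrsf9 has a second window, and only that one held these patterns. All the matches are of letters, and they occur in members that were higher and in members that were lower in LP cells.

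Compared with naive T cells, the LP cells of colitic mice carried much more signal for the receptors OX40 and TNFR2 and for the ligands RANKL and CD30 ligand, and far less for CD27. The comparison sets T cells of the inflamed colon against naive T cells of the kind that was transferred. Of the 10 members, 4 rose and 1 fell past the threshold with both LP subsets in one mean, and 5 did not pass. Over all 18193 genes tested, 15.1% were higher and 18.8% were lower by the same rule. The median log2 difference was 0.94 over the members and -0.14 over all genes. In such sorted bulk samples, fewer cells that carry a transcript and less transcript in each cell cannot be told apart.

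**Figure D1:**
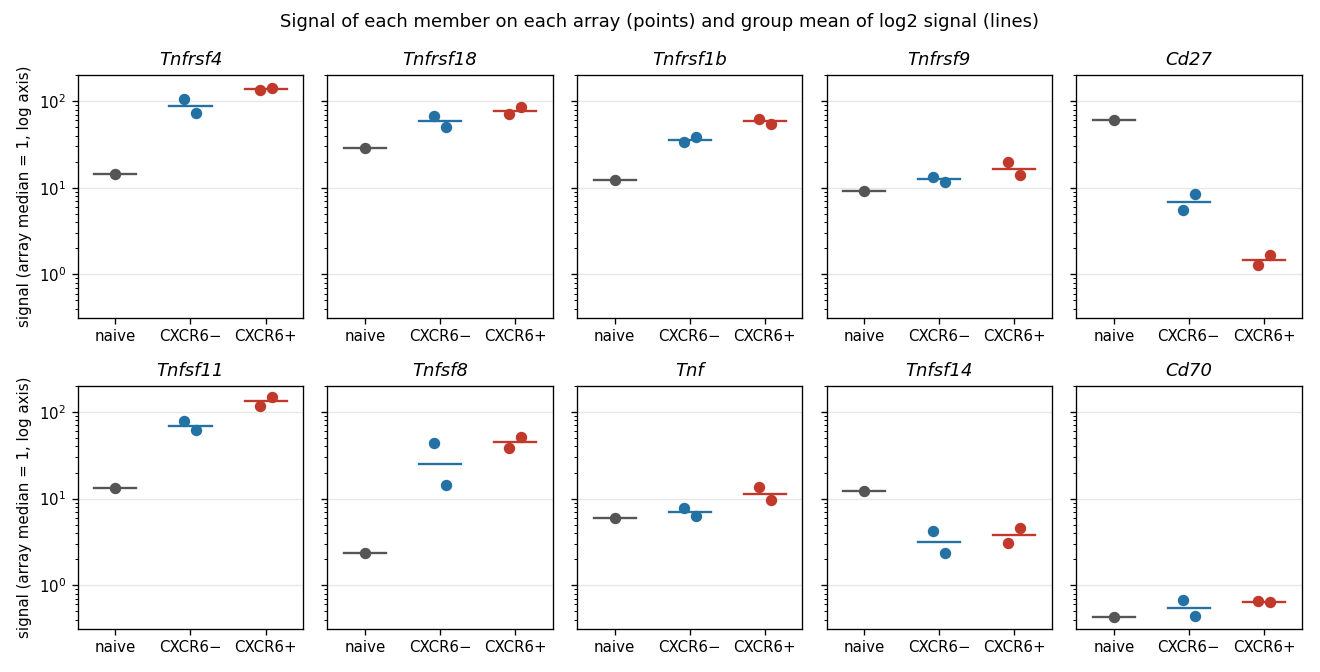
Signal of the main probe set of each member (vertical axis, log scale, array median of 1) on the naive, CXCR6- and CXCR6+ arrays; each point is an array and each line the mean of the log2 signals of a group. Tnfrsf4, Tnfsf11 and Tnfsf8 lie far above the naive array on all 4 LP arrays, and Cd27 falls from 60.8 in naive cells to 1.29 and 1.66 in CXCR6+ cells.

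Tnfrsf4, which encodes OX40, a receptor that prolongs the survival of activated CD4+ T cells, had signals of 136 and 142 in CXCR6+ cells, 106 and 72.1 in CXCR6- cells and 14.3 in naive cells. All 4 LP arrays were above the naive array by a wide margin. The log2 difference was 2.94 (SE 0.33, 7.70-fold, limma adjusted p = 0.0151). Tnfrsf18, which encodes GITR and is the next coding gene to Tnfrsf4 on chromosome 4, was at 70.4 and 85.1 in CXCR6+ cells, 67.6 and 50.8 in CXCR6- cells and 29.1 in naive cells. Its log2 difference of 1.21 (SE 0.31) did not pass (adjusted p = 0.0565), although no LP array came down to the naive array.

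Tnfrsf1b encodes TNFR2, the TNF receptor that lacks a death domain and is inducible on T cells. Its main probe set had signals of 62.8 and 54.1 in CXCR6+ cells, 33.4 and 38.1 in CXCR6- cells and 12.4 in naive cells. The rise was 3.66-fold (log2 difference 1.87, SE 0.26, adjusted p = 0.0195). A further probe set of Tnfrsf1b gave signals of 1.60, 0.662, 0.821 and 0.541 in LP cells and 1.17 in naive cells, so that its groups overlapped, and with the mean of both probe sets the log2 difference was 0.69 (adjusted p = 0.266). Tnfrsf9, the gene of 4-1BB, was at 19.9 and 13.9 in CXCR6+ cells, 13.4 and 11.7 in CXCR6- cells and 9.11 in naive cells. This difference of 0.66 on the log2 scale (SE 0.33) did not pass (adjusted p = 0.195).

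Cd27 was the member with the largest difference. Its signals were 1.29 and 1.66 in CXCR6+ cells, 5.48 and 8.52 in CXCR6- cells and 60.8 in naive cells, so that the 3 groups did not overlap. The LP cells were 19.2-fold lower than the naive cells (log2 difference -4.26, SE 0.38, adjusted p = 0.0127), and 4.37% of all genes had a difference of greater size. As given above, of the B cell markers 3 were lower in LP cells and 1 higher. Of the NK cell markers Ncr1 was lower and Klra8 did not pass. The part of these cells in the Cd27 difference was not tested.

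Among the ligands, Tnfsf11 rose 7.21-fold. Its signals were 118 and 150 in CXCR6+ cells, 78.6 and 62.0 in CXCR6- cells and 13.4 in naive cells (log2 difference 2.85, SE 0.31, adjusted p = 0.0148). The groups were ordered naive, CXCR6- and CXCR6+ with no overlap. RANKL is also made by group 3 innate lymphoid cells and stromal cells, and of their markers Kit was at 41.0, 57.6, 18.9 and 20.4 in LP cells and 4.69 in naive cells, and Il1r1 at 41.2, 30.2, 31.8 and 8.51 and 2.13. Ncr1, the other measured marker of these innate cells, went the other way, at 0.100, 0.286, 0.278 and 0.685 in LP cells and 24.9 in naive cells. Their part in the Tnfsf11 signal was not tested.

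Tnfsf8, the gene of CD30 ligand, had the largest rise, at 14.3-fold (log2 difference 3.84, SE 0.72, adjusted p = 0.0309). Its signals were 38.7 and 51.7 in CXCR6+ cells and 43.7 and 14.5 in CXCR6- cells, against 2.34 in naive cells. The 2 CXCR6- arrays lay further apart than for the main probe set of any other member, with the first among the CXCR6+ values and the second well below them. All 4 were above the naive array.

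Tnf itself was at 13.6 and 9.64 in CXCR6+ cells, 7.71 and 6.38 in CXCR6- cells and 6.02 in naive cells. Its log2 difference of 0.57 (SE 0.33, 95% interval -0.38 to 1.52) did not pass (adjusted p = 0.252), and 73.7% of all genes differed more. The lower CXCR6- array was close to the naive array. Macrophages are another source of TNF, and of 9 markers of macrophages, monocytes and neutrophils 3 were higher (Csf1r, Cd14 and Lyz2) and 2 lower (S100a8 and S100a9) in LP cells, with a summed signal of 275 to 348 against 277. Their part in the Tnf signal was not tested. Tnfsf14, which encodes LIGHT, had signals of 3.06, 4.64, 4.23 and 2.38 in LP cells in the same order and 12.1 in naive cells. All 4 were below the naive array, but the log2 difference of -1.81 (SE 0.48) did not pass (adjusted p = 0.0606). Cd70, the ligand of CD27 and the neighbour of Tnfsf14 on chromosome 17, stayed under the array median on every array, with signals of 0.659, 0.635, 0.672 and 0.437 in LP cells and 0.424 in naive cells. The second CXCR6- array and the naive array were nearly equal, and the log2 difference was 0.48 (SE 0.35, adjusted p = 0.342).

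**Figure D2:**
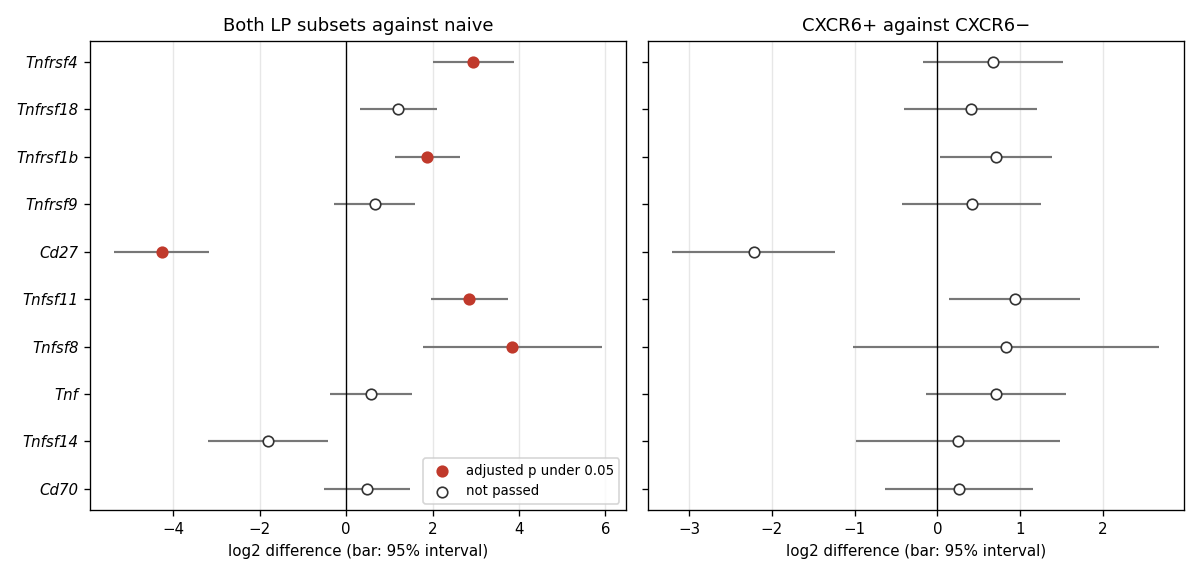
Log2 differences of the 10 members with 95% intervals from limma for both LP subsets against naive cells (left) and for CXCR6+ against CXCR6- cells (right); filled points passed at an adjusted p under 0.05 over all genes. On the left Tnfrsf4, Tnfrsf1b, Tnfsf11 and Tnfsf8 passed upwards and Cd27 downwards, and on the right no member passed.

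6 of the 10 members have 1 probe set and 4 have more. The further probe set of Tnfsf11 moved with the main one, with signals of 4.47, 5.25, 2.60 and 0.859 in LP cells and 0.191 in naive cells, and passed when every probe set was fitted (log2 difference 3.82, adjusted p = 0.0337). Both further probe sets of Tnfrsf9 were above the naive array on all 4 LP arrays. Their log2 differences were 1.49 (signals of 7.58, 4.08, 4.10 and 2.52 against 1.51, adjusted p = 0.115) and 1.73 (0.873, 0.522, 0.461 and 0.439 against 0.166, adjusted p = 0.0493), both greater than that of the main one. For Tnfsf14 the further probe set was at 0.0320, 0.164, 0.115 and 0.112 in LP cells and 1.45 in naive cells (log2 difference -4.00, adjusted p = 0.0581). Only Tnfrsf1b, of these 4 genes, had probe sets of opposite sign.

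**Figure D3:**
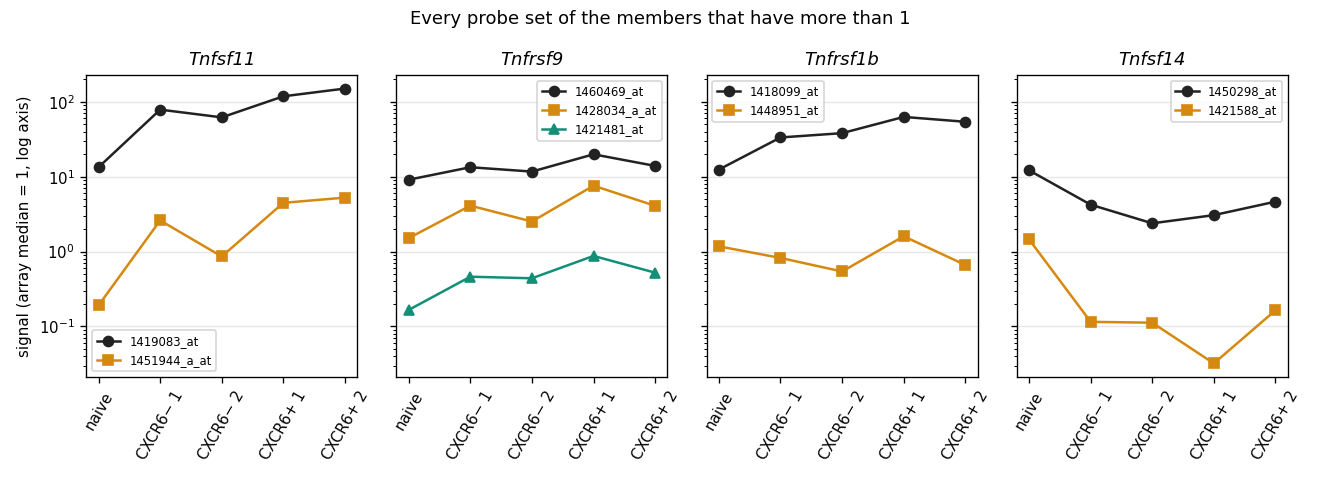
Signals (vertical axis, log scale, array median of 1) of every probe set of the 4 members with more than 1, on the naive, CXCR6- and CXCR6+ arrays. The lines of Tnfsf11, Tnfrsf9 and Tnfsf14 run the same way between the naive array and the LP arrays, whereas the dimmer probe set of Tnfrsf1b stays between 0.541 and 1.60.

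All 4 LP arrays were above the naive array for 8 of the 10 members, against 35% of all genes, and below it for Cd27 and Tnfsf14, against 40.9% of all genes. With each subset set on its own against the naive array, the same 5 members passed. In CXCR6+ cells the log2 differences were 3.28 for Tnfrsf4, 2.23 for Tnfrsf1b, 3.32 for Tnfsf11, 4.26 for Tnfsf8 and -5.37 for Cd27, where 13.2% of all genes were higher and 15.3% lower. In CXCR6- cells they were 2.61 for Tnfrsf4, 1.52 for Tnfrsf1b, 2.38 for Tnfsf11, 3.42 for Tnfsf8 and -3.15 for Cd27, where 12.8% of all genes were higher and 16.7% lower. These comparisons share the naive array, so they are not independent of each other. With any 1 LP array left out, 0 members and 0 genes of all passed in either of them. In CXCR6- cells the adjusted p of Tnfsf8 was 0.0498, and it was 0.0550 when every probe set was fitted, and with probe sets averaged per gene only Tnfrsf4, Cd27 and Tnfsf11 passed.

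The calls against naive cells changed when 1 LP array was left out. Without the first CXCR6+ array Cd27 and Tnfsf11 passed, without the second only Cd27, and without either CXCR6- array none, with 0 genes on the whole array passing and 7530 and 7545 at an unadjusted p under 0.05. The log2 differences themselves kept their direction and ranged from 3.44 to 4.24 for Tnfsf8 and from -4.42 to -4.10 for Cd27. Each of these fits keeps the 1 naive array, so they cannot show how far the differences depend on it. How the arrays were scaled moved the calls over all genes. Of the genes called against naive cells 44.7% were higher with the signals as deposited, 56.4% after quantile normalization and 66.4% after centring each array on the median of the genes used, and the median of all genes moved from -0.14 to -0.00135 and 0.41. The median of the members was 1.55 and 1.49 under these scalings. The same 5 members and Tnfrsf18 passed under both of these scalings, where 27.4% and 35.8% of all genes passed.

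The comparison of CXCR6+ with CXCR6- LP cells asks what sets apart T cell subsets of the same inflamed tissue. Most members had more signal in the CXCR6+ cells and Cd27 had less, but no member passed the test, and neither did any of the 18193 genes (0%). The median log2 difference was 0.54 over the members and 0.08 over all genes. Both CXCR6+ arrays were above both CXCR6- arrays for 6 members (Tnf, Tnfrsf4, Tnfrsf9, Tnfrsf18, Tnfrsf1b and Tnfsf11), against 25.1% of all genes, and below them for Cd27, against 14.3%. At an unadjusted p under 0.05 there were 3 members, Tnfrsf1b, Cd27 and Tnfsf11, against 6.55% of all genes. The methods' test, run on the same values, had 2 of the 10 members, Tnfrsf1b and Cd27, and 7.05% of all genes under its threshold, and 0 members and 1 gene of all after Benjamini-Hochberg adjustment.

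Cd27 had the largest of these differences at -2.22 on the log2 scale (SE 0.34, 95% interval -3.20 to -1.24, adjusted p = 0.551). Only 1.90% of all genes had a difference of greater size. Tnfsf11 followed at 0.93 (SE 0.28, adjusted p = 0.708), then Tnfsf8 at 0.83 (SE 0.64, adjusted p = 0.817), Tnfrsf1b at 0.71 (SE 0.23, adjusted p = 0.739), Tnf at 0.70 (SE 0.29, adjusted p = 0.761) and Tnfrsf4 at 0.67 (SE 0.29, adjusted p = 0.766). The value of Tnfsf8 rests on the second CXCR6- array, without which it was 0.03. Differences of the main probe sets of Tnfrsf9 (0.41), Tnfrsf18 (0.40), Cd70 (0.26) and Tnfsf14 (0.25) were under 1.5-fold. The 95% intervals of these 4 and of Tnf, Tnfrsf4 and Tnfsf8 include 0. Further probe sets gave 0.79 and 0.59 for Tnfrsf9, 1.70 for Tnfsf11, 0.63 for Tnfrsf1b and, with the opposite sign, -0.65 for Tnfsf14, and none of these passed.

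The second CXCR6- array was the lowest of the 4 LP arrays for 8 of the 10 members, and for 29.0% of all genes. On that array the signal ratio of the 3′ to the 5′ probe set of the Gapdh control, a common measure of RNA quality, was 6.96, against 4.19 on the other CXCR6- array, 2.81 and 3.98 in CXCR6+ cells and 1.51 in naive cells. The summed signal of the CD4 T cell markers was 252 to 288 in CXCR6- cells and 368 to 383 in CXCR6+ cells. Their part in the differences between the subsets was not tested. The Gapdh ratio was also higher on all 4 LP arrays than on the naive array, which cannot be told apart from the group. Its part in the differences from naive cells was not tested.

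The receptors and ligands that pair with the members were measured for 8 of 9 genes. Against naive cells 2 of these rose, 1 fell and 5 did not pass, where 15.1% of all genes were higher and 18.8% lower. Tnfsf4, the ligand of OX40, rose from 0.768 in naive cells to 2.44 and 3.22 in CXCR6+ cells and 1.65 and 1.95 in CXCR6- cells (log2 difference 1.55, adjusted p = 0.0336). Tnfrsf8, the CD30 receptor for the Tnfsf8 product, was at 1.02, 0.699, 0.765 and 1.15 in LP cells and 0.188 in naive cells (log2 difference 2.24, adjusted p = 0.0287). Tnfrsf14, the receptor HVEM that binds LIGHT, fell with a log2 difference of -2.46 (0.694, 1.59, 1.49 and 1.43 against 6.82, adjusted p = 0.0428). The RANKL receptor Tnfrsf11a (2.29, adjusted p = 0.0639) and its decoy Tnfrsf11b (2.12, adjusted p = 0.104) did not pass, and their signals were near or under the array median on all arrays. The 4-1BB ligand gene Tnfsf9 had a log2 difference of -0.71 and the TNFR1 gene Tnfrsf1a one of 0.68, and neither passed. Of the 8 genes, 1 had both CXCR6+ arrays above both CXCR6- arrays and 1 had both below, against 25.1% and 14.3% of all genes.

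Of the other ligands of the family, 7 of 10 were measured. Fasl, whose product kills cells that carry Fas, rose (82.1 and 105 in CXCR6+ cells, 32.5 and 46.8 in CXCR6- cells and 12.2 in naive cells, log2 difference 2.30, adjusted p = 0.0221). Its further probe set gave only 0.23, with signals of 9.73, 10.9, 3.95 and 4.82 against 5.74, so that both CXCR6- arrays were below the naive array. Lta, which encodes lymphotoxin alpha and lies next to Tnf, fell with a log2 difference of -1.54 (adjusted p = 0.0332), and Tnfsf10, the gene of TRAIL, with one of -1.81 (adjusted p = 0.0202). Both falls were lost after quantile normalization, at adjusted p = 0.118 for Lta and 0.0550 for Tnfsf10, and 1 of the further probe sets of Tnfsf10 had the opposite sign. Between the subsets 4 of these 7 ligands had both CXCR6+ arrays above both CXCR6- arrays, and the same 4 were at an unadjusted p under 0.05 although none passed. They were Ltb at 1.64 on the log2 scale, Lta at 1.41, Fasl at 1.25 and Tnfsf10 at 0.96. Of all genes 25.1% had both CXCR6+ arrays above both CXCR6- arrays, and 6.55% were at such a p in either direction. Eda went the other way, with both CXCR6+ arrays below both CXCR6- arrays, as had 14.3% of all genes. Its log2 difference was -2.17 (limma adjusted p = 0.770), at signals under the array median on all 5 arrays. Lta had signals of 4.83 and 6.43 in CXCR6+ cells, 2.23 and 1.96 in CXCR6- cells and 9.90 in naive cells, so that its groups did not overlap.

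**Figure D4:**
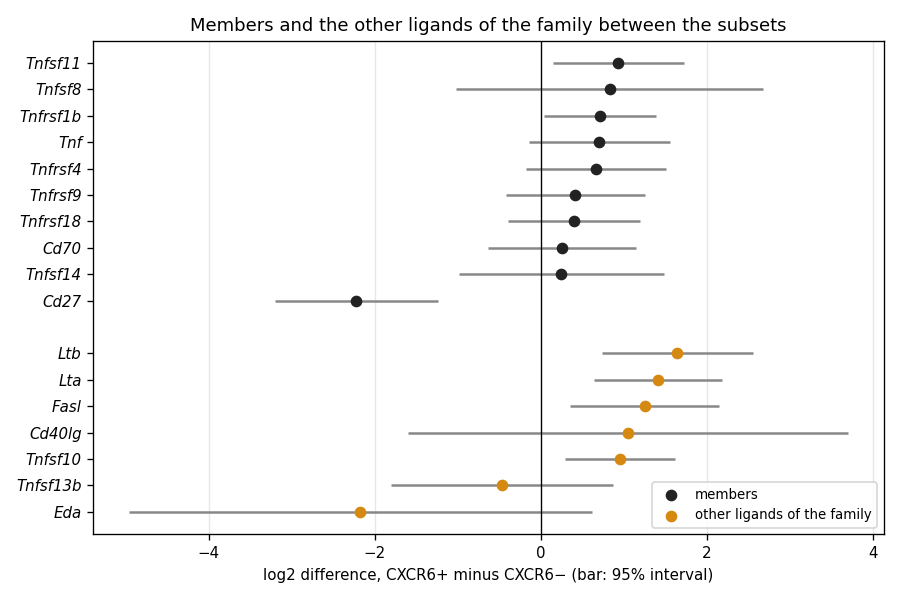
Log2 differences between CXCR6+ and CXCR6- LP cells (horizontal axis, with 95% intervals from limma) for the 10 members and for the 7 other ligands measured. Cd27 lies at -2.22 and the other 9 members between 0.25 and 0.93. Of the other ligands, Ltb, Lta, Fasl and Tnfsf10 lie between 0.96 and 1.64, Cd40lg at 1.05, Tnfsf13b at -0.47 and Eda at -2.17. No gene passed at an adjusted p under 0.05.

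Among 16 measured receptors of the family outside the members and their partners, 4 rose, 1 fell and 11 did not pass. The shares over all genes were 15.1% higher and 18.8% lower. Tnfrsf25, the gene of the death receptor DR3 of T cells, rose from 5.96 in naive cells to 30.9 and 43.0 in CXCR6+ cells and 28.2 and 22.0 in CXCR6- cells (log2 difference 2.34, adjusted p = 0.0206). Ngfr (2.59), Tnfrsf19 (1.82) and Tnfrsf23 (1.71) also rose, from signals under the array median in naive cells, and Ngfr stayed under it on all 5. A further probe set of Ngfr and one of Tnfrsf19 had the opposite sign. Tnfrsf13b, the receptor TACI of B cells, fell (log2 difference -2.73, adjusted p = 0.0449). The B cell receptors Tnfrsf13c (-4.77, adjusted p = 0.101) and Tnfrsf17 (-4.10, adjusted p = 0.0879) did not pass. Of the B cell markers, Cd79a, Cd79b and Ms4a1 were lower in LP cells and Pax5 higher, with the summed signals given above. The part of B cells in these 3 differences was not tested. Of the 16 receptors, 4 had both CXCR6+ arrays above both CXCR6- arrays and 3 had both below, against 25.1% and 14.3% of all genes. Their median log2 difference between the subsets was -0.13, and none passed.

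The adaptors and enzymes that carry the signal of these receptors were measured for 15 of 17 genes, of which 6 rose, 2 fell and 7 did not pass. Here too, 15.1% of all genes were higher and 18.8% lower. Traf1, an adaptor induced by NF-kB, had signals of 168 and 142 in CXCR6+ cells, 144 and 118 in CXCR6- cells and 3.01 in naive cells (log2 difference 5.56, SE 0.28, adjusted p = 0.0119). With its further probe set the difference was 1.33, from signals of 57.6, 65.8, 41.6 and 40.4 against 20.0. Tnfaip3, which encodes A20, an enzyme that restrains NF-kB, was at 298, 338, 281 and 259 in LP cells and 15.6 in naive cells (4.23, SE 0.25, adjusted p = 0.0119). The inhibitor of apoptosis genes Birc3 (2.99) and Birc2 (1.79), Tank (2.47) and Map3k14 (2.20), the kinase NIK of the alternative NF-kB pathway, also rose. Tradd, the death domain adaptor of TNFR1, fell (-2.16, adjusted p = 0.0167), as did Rnf31 (-1.54, adjusted p = 0.0258), a ubiquitin ligase subunit, whose fall was lost after quantile normalization (adjusted p = 0.121). The median over the 15 was 0.44. Between the subsets both CXCR6+ arrays were above both CXCR6- arrays for 10 of the 15 genes, against 25.1% of all genes. Yet none was at an unadjusted p under 0.05, against 6.55% of all genes.

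A list of 6 further costimulation genes held 3 of the CD28 family (Cd28, Icos and Ctla4), which rose, and Cd2, Slamf1 and Cd226 of other families, which did not pass. For comparison, 15.1% of all genes were higher. Icos was at 364, 395, 356 and 307 in LP cells and 37.0 in naive cells (log2 difference 3.26, adjusted p = 0.0120), the inhibitory receptor gene Ctla4 at 250, 256, 196 and 137 and 19.2 (3.41, adjusted p = 0.0130) and Cd28 at 215, 230, 224 and 223 and 33.5 (2.73, adjusted p = 0.0124). Cd28 was nearly level over the 4 LP arrays, whereas Slamf1, which did not pass (1.86, adjusted p = 0.0628), was at 128 and 147 in CXCR6+ cells and 71.2 and 34.1 in CXCR6- cells. Of 4 genes that process TNF or its mRNA, Adam17, whose product sheds TNF from the cell surface, rose (1.52, adjusted p = 0.0477) and 3 did not pass.

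**Figure D5:**
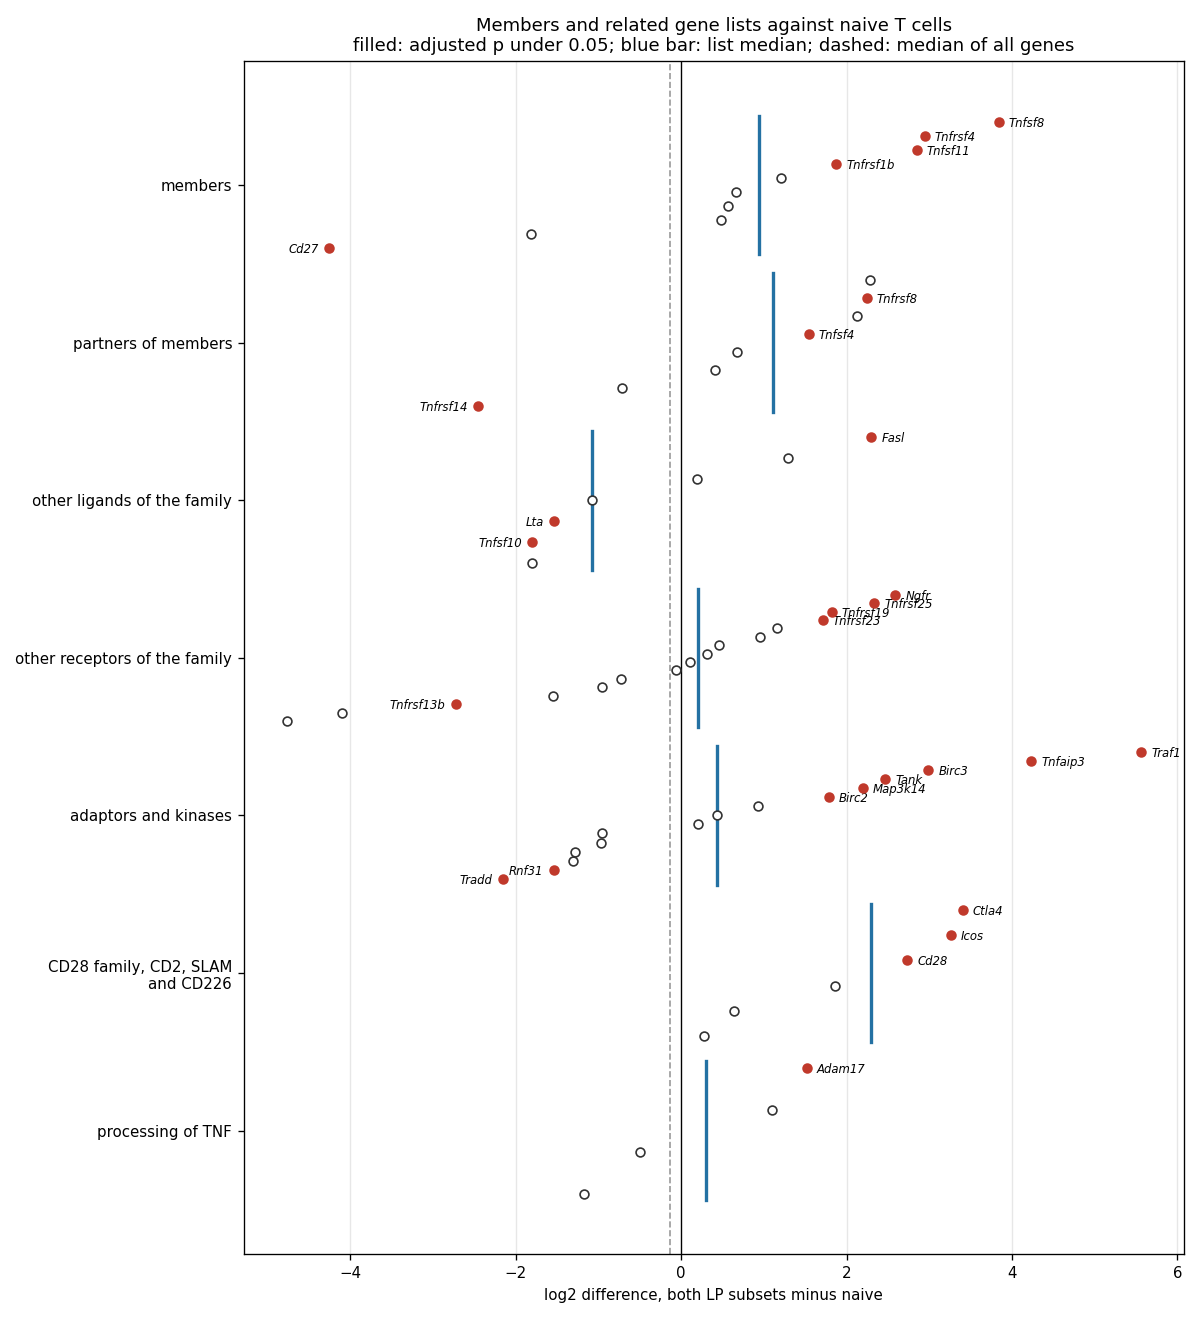
Log2 difference of each gene between both LP subsets and naive cells (horizontal axis) for the members and the 6 related lists; filled and named points passed at an adjusted p under 0.05, blue bars are list medians and the dashed line is the median of all genes. The members have a median of 0.94, the list of Cd28, Icos, Ctla4, Cd2, Slamf1 and Cd226 one of 2.30 and the other ligands one of -1.08.

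After quantile normalization Tnfrsf8 (limma adjusted p = 0.0662), Tnfrsf14 (0.114), Ngfr (0.0723), Tnfrsf19 (0.0549) and Tnfrsf13b (0.125) no longer passed. With arrays centred on medians, Tnfrsf14 (0.0623), Tnfrsf13b (0.0680), Lta (0.0701) and Rnf31 (0.0658) no longer passed. None of the 23 list genes called against naive cells changed direction under either scaling. Of these 23 genes, 13 have further probe sets, and 3 of the 19 further probe sets had the opposite sign. Over the family as a whole, 41 of 46 listed ligands and receptors were measured, of which 11 rose, 5 fell and 25 did not pass. By the same rule 15.1% of all genes were higher and 18.8% lower. The genes Tnfsf18, Tnfsf12, Tnfsf13, Tnfsf15, Tnfrsf26, Traf3 and Ripk1 were not analysed here. Of 10906 genes with a mean signal of at least 1, those whose pattern over the 5 arrays was most like that of Tnfsf8 were Tctex1d1, Fam124b and Il1r1, at root mean square distances of 0.18, 0.29 and 0.34 on the log2 scale after centring each gene on its own mean. For Cd27 they were Tgm4, Itga5 and Zcchc3, at 0.18, 0.22 and 0.39. With 5 arrays of 3 groups such likeness is a description.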

How the data were processed

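RNA of CXCR6+ and CXCR6- LP CD4+ T cells (2 arrays each) and of CD45RBhigh naive T cells (1 array) was hybridized to Affymetrix GeneChip arrays of the mouse genome after amplification with a 3'-IVT kit. The intensity values deposited by the authors are linear signals with a median of 1 on each array. The methods name GeneSpring and the submitters' processing notes RMA, and the values are neither log2 values nor quantile normalized. How background was corrected and which filters were used is not given in the sources used here. RNA kits of different names stand in the labels and the methods. Precision is limited by the number of arrays.

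Of 45101 probe sets, 34945 carry 1 gene symbol and 932 several, by the platform annotation, and 34741 of the former matched a RefSeq gene. Each of 18193 genes was represented by its brightest probe set on average. All genes were kept, on a log2 scale in which a signal of 0 was replaced by 0.001. A single model of the 3 groups was fitted to all genes (lmFit and eBayes of limma 3.58.1, R 4.3.3), with two-sided p-values adjusted by Benjamini-Hochberg across genes and a threshold of 0.05. It has 2 residual degrees of freedom and a prior of 1.68, and takes the spread of the lone naive array to be that of the LP groups. Simulated arrays with known differences were used to test its estimates for bias. They were drawn with the LP spread for the naive array too, so they cannot test that assumption. Tables and plots were made with Python 3.11.15, pandas 2.3.3 and matplotlib 3.10.9.

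The members and lists were chosen with earlier results of these data known. Named genes are the members, the list genes that passed against naive cells with up to 3 others of the largest difference in each list, and the 3 genes most like the members with the largest rise and fall. Not all are printed. As alternatives, probe sets were averaged by gene or each fitted, dim genes were filtered at the 40th percentile, arrays were quantile normalized or centred on medians, 1 was added to the signal, the variance was given a trend with robust fitting, the replicate number was used as a block, single LP arrays were left out, and the test of the methods was run. Promoter windows are from RefSeq (GRCm38.p6), which had none for Cd70 in the table used here.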

Additional observations from a re-analysis of the deposited data

Results flagged for a closer look

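Among the members and their related lists, 2 genes had both CXCR6+ arrays on one side of the naive array and both CXCR6- arrays on the other. The share of all genes with this pattern was not computed, so the count says nothing particular about these lists. Ltb, which encodes lymphotoxin beta and neighbours Tnf, had signals of 112 and 106 in CXCR6+ cells, 43.4 and 27.8 in CXCR6- cells and 54.0 in naive cells. Its log2 difference between the subsets was 1.64 (limma adjusted p = 0.604), so that it did not pass over all genes. Cd226, which encodes the costimulatory receptor DNAM-1, was at 1.20 and 3.03 in CXCR6+ cells, 1.05 and 0.895 in CXCR6- cells and 1.13 in naive cells, with a log2 difference between the subsets of 0.98 (limma adjusted p = 0.797). For Cd226 the first array of each subset lay close to the naive array. With 1 naive array, the position of either subset relative to it has no replicate check.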

How the results depend on the processing

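Over all alternatives, 205 of the values for single members kept their direction and side of the threshold, 8 passed where they had not, 20 no longer passed and 5 changed sign. Many of the 205 are between the subsets, where 0 genes of all passed in the main fit, so a kept side says little about stability there. The 20 were all of the 5 members called against naive cells: 4 for Tnfrsf4, 6 for Tnfrsf1b, 2 for Cd27, 5 for Tnfsf8 and 3 for Tnfsf11. The reversals were small values: Cd70 against naive cells was -0.031 after quantile normalization; between the subsets Cd70 ranged from -0.055 to 0.57 when 1 array was left out and Tnfsf14 from -0.17 to 0.66, the latter being -0.20 with the mean of its probe sets. Of the 5 members called against naive cells, 3 passed with a replicate block (Tnfrsf4, Cd27 and Tnfsf11; 19.3% of all genes), and 0 to 2 when 1 array was left out (0% to 10.7%). For CXCR6+ cells alone 9 passed without genes under the 40th percentile of signal (of 9 left), with log2 of the signal plus 1 and with a variance trend, where 57.9%, 39.9% and 41.9% of all genes passed. For CXCR6- cells alone 3 passed with the mean of probe sets, where 20.4% of all genes did. In both of these comparisons 0 members passed with the replicate block and 0 to 0 with 1 array left out, as did 0 genes of all, so that these counts say nothing particular about the members. Between the subsets 2 members and 7.05% of all genes were under the threshold of the methods' general t-test without adjustment. Genes called against naive cells over the whole array numbered 2756 higher and 3414 lower, 1705 and 1807 with the replicate block and 3545 and 4757 with the variance trend. The replicate numbers are not known to pair the arrays: the differences between replicates 1 and 2 of the subsets correlated at 0.019 over all genes and 0.19 over genes with a mean signal of at least 1, and Krt8 was at 9.36 and 10.3 on the first and 25.4 and 29.6 on the second replicates. A single naive array, dim probe sets without detection calls and 4 LP arrays set the limits.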
